A study of Mus musculus with 4 samples.

Results

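The miRNAs described here are both arms of miR-379 and miR-411, which come from the first hairpins of the distal miRNA cluster of the imprinted Dlk1-Dio3 region of the mouse. They were taken by name (mmu-miR-379-5p, mmu-miR-379-3p, mmu-miR-411-5p and mmu-miR-411-3p, written without the species prefix below), as 4 of the 1907 mature miRNAs counted, and all 4 passed the filter on low counts. Small RNA was sequenced from the livers of C57BL/6 mice aged 15 weeks, with 2 control libraries and 2 libraries from mice given thioacetamide (TAA), a hepatotoxin that causes liver fibrosis. TAA was given by intraperitoneal injection at 200 mg/kg, 3 times a week for 10 weeks, and what the controls received instead is not given in the labels. The design text calls the libraries biological replicates without naming animals, so p-values measure the spread between these libraries, which may be partly technical.

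MicroRNAs are cut from hairpins in a longer transcript. Drosha frees the hairpin in the nucleus, Dicer cuts it to a duplex of a 5p and a 3p arm, and an Argonaute protein keeps 1 arm, whose seed (bases 2 to 8) pairs with target mRNAs. The Dlk1-Dio3 miRNAs are expressed from the maternal allele, chiefly in embryo, placenta and brain, and in mice the loss of the cluster that runs from miR-379 to miR-410 impairs metabolic adaptation of the liver at birth. miR-379 is induced in hepatocytes by glucocorticoids and has been linked to triglyceride metabolism, and the primary transcripts of miR-379 and miR-411 are known to be edited from adenosine to inosine within the seed of the 5p arm.

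The sequences show how the 4 miRNAs are related, and they are printed for the members and for the 1 other miRNA of the cluster that has a member's seed. All are from RefSeq (GRCm38.p6), 5′ to 3′, with the seed in capitals.
miR-379-5p: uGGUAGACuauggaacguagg
miR-1193-5p: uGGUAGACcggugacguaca
miR-411-5p: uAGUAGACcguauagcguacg
miR-379-3p: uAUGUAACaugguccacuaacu
miR-411-3p: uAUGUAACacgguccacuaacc
The 3p arms share the seed AUGUAAC, which no other of the 1679 RefSeq mature miRNAs has. Counted from 1 at the 5′ end, with the base of miR-379-3p first, they differ at U10C and U22C, so that 20 of 22 bases are identical. The 5p arms have different seeds. Within the seed they differ only at G2A, with the base of miR-379-5p first, and over the whole arm they differ at 7 of 21 positions. miR-379-5p shares its seed GGUAGAC with miR-1193-5p of the same cluster, and miR-411-5p shares AGUAGAC with miR-7229-5p, from chromosome 5. All 4 members begin with U, as do 40.9% of the 1679 RefSeq mature miRNAs.

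The hairpins are printed with both arms in capitals, to show where each member is cut from.
Mir379: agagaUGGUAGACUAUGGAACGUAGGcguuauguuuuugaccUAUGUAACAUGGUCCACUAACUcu
Mir411: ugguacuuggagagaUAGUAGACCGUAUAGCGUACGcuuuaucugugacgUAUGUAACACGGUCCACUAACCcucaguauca
Mir379 lies at chr12:109709060-109709125 and Mir411 at chr12:109710175-109710256, both on the plus strand of GRCm38 and 1049 bp apart. Neither lies in an annotated gene on its strand other than its own. The long non-coding RNA gene B830012L14Rik ends 6.47 kb before Mir379, and Mirg, the non-coding host of later hairpins of the cluster, begins 19.5 kb after Mir411. A global alignment of the hairpins gave 51 identical positions in 84 columns. For reads that match both hairpins, or that carry an edited base, the assignment is not given in the sources used. Because the 3p arms are so alike, the division of reads between them is uncertain.

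Total miRNA counts were 42609845 for control 1, 46224018 for control 2, 43836911 for TAA 1 and 48878003 for TAA 2. Before TMM scaling, 1 CPM (a count scaled to library size) was thus 42.6 to 48.9 counts. Unless stated otherwise, the CPM values that follow also include TMM factors, which ran from 0.9248 for control 2 to 1.05 for TAA 2. The hepatocyte markers miR-122-5p, miR-122-3p, miR-192-5p and miR-194-5p summed to 273600 and 297100 CPM in the controls and 251700 and 259300 CPM after TAA, by far the highest of the marker lists, and none of the 4 passed the edgeR test. Markers of other cells moved between the groups. All 4 erythroid markers rose, from sums of 325 and 195.9 CPM to 530.3 in TAA 1 and 1926 in TAA 2. Of the 5 leukocyte markers 2 rose, miR-150-5p and miR-155-5p (log2 fold change 1.34 and 0.947). The sums over all 5 were 874 and 1384 CPM in the controls and 1850 and 1627 CPM after TAA. They were mostly miR-142a-5p, at 706.4 and 1164 CPM in the controls and 1488 and 1290 CPM after TAA. miR-142a-5p did not pass the edgeR test (adjusted p = 0.138). Of the 5 stellate or mesenchymal markers miR-214-3p rose, with sums of 27760 and 28080 CPM in the controls and 31600 and 23350 CPM after TAA. These sums were mostly miR-143-3p, at 26280 and 26920 CPM in the controls and 29770 and 21930 CPM after TAA. Without passing, miR-199a-3p and miR-199a-5p were higher (log2 fold change 0.51 and 0.26), and miR-143-3p and miR-145a-5p lower (-0.041 and -0.41). Of the other markers tested, 2 endothelial, 3 neural, 1 muscle and 2 pancreatic, none passed, though the pancreatic sum was 108.9 CPM in control 1 against 8.47 to 10.5 CPM elsewhere. No list had a marker at 0 in all libraries. The part of these cells in the results below was not tested, and in bulk liver more cells of a type and more RNA per cell cannot be told apart.

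The question of the series is which miRNAs change in TAA-induced liver fibrosis. All 4 members rose after TAA, between 10.7-fold and 16.0-fold, against 14.0% of the 644 miRNAs tested that rose and 2.64% that fell. miR-411-5p was by far the most abundant of them in every library, followed by miR-379-5p, with the 3p arms lowest. Levels are CPM scaled with TMM factors, and each change was tested with the quasi-likelihood F test of edgeR, with p adjusted by Benjamini-Hochberg over all 644 miRNAs and a threshold of 0.05. The members are alike in length, at 21 or 22 bases, so their CPM values are set side by side without scaling for length. The lengths of the counted reads were not examined, and unequal ligation of different sequences was not measured.

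miR-411-5p had 64.6 and 77.4 CPM in the controls and 949.7 and 752 CPM after TAA, from 2736, 3310, 43166 and 38559 counts. Both TAA libraries lay far above both controls, and TAA 1 was the highest. Its mean went from 71.0 ± 9.05 to 851 ± 140.1 CPM (SD, n = 2 libraries per group), a log2 fold change of 3.58 (SE 0.17, edgeR adjusted p = 1.54e-05) or 12.0-fold. It is the dominant arm of its hairpin, and the most abundant of the 47 tested miRNAs of the distal cluster.

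miR-379-5p, the main arm of the first hairpin, measured 2.22 and 2.55 CPM in the controls and 30.0 and 21.2 CPM after TAA. These values rest on 94 and 109 counts and on 1365 and 1087 counts, and the groups did not overlap. The log2 fold change was 3.42 (SE 0.25, edgeR adjusted p = 3.75e-05), or 10.7-fold, the smallest of the 4. The log2 fold changes of the dominant arms of both hairpins differed by less than the standard error of either, although their levels were far apart. With 0.5 added to each count, miR-411-5p had 28.96 and 30.2 times the counts of miR-379-5p in the controls and 31.6 and 35.5 times after TAA. That ratio was higher in each TAA library than in either control. As a log2 ratio of miR-379-5p to miR-411-5p, with 0.5 added to each count, the mean was -4.89 (SD 0.044) in control and -5.07 (SD 0.12) after TAA, a difference of -0.18. The two-sided exact permutation test gave p = 0.33, the smallest that 2 libraries against 2 can give, so no difference could pass this test.

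The 3p arms, which share their seed, rose from about 1 CPM. miR-379-3p had 0.64 and 1.15 CPM in the controls, from 27 and 49 counts, and 16.5 and 12.2 CPM after TAA, from 749 and 626 counts. Its controls were the most unlike of any member, though the 95% Wilson intervals of their shares, 0.44 to 0.92 and 0.80 to 1.40 CPM before TMM scaling, still met. The log2 fold change was 4.001 (SE 0.32, edgeR adjusted p = 5.49e-05), or 16.0-fold. miR-411-3p measured 1.02 and 1.31 CPM in the controls, from 43 and 56 counts, and 17.1 and 10.6 CPM after TAA, from 775 and 541 counts. It rose by a log2 fold change of 3.56 (SE 0.30, edgeR adjusted p = 7.56e-05), or 11.8-fold.

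The order of mean level was miR-411-5p, miR-379-5p, miR-411-3p and miR-379-3p in the controls. After TAA the 3p arms changed places, at 13.8 ± 4.60 CPM for miR-411-3p and 14.3 ± 3.02 CPM for miR-379-3p, which is within their spread. In both groups the libraries of the 3p arms overlapped, while the libraries of the other neighbours in the order did not. Per library, miR-379-3p had 0.63 and 0.88 times the counts of miR-411-3p in the controls and 0.97 and 1.16 times after TAA. The log2 ratio was 0.51 higher after TAA, from a mean of -0.43 (SD 0.33) to 0.081 (SD 0.18), again with an exact permutation p of 0.33, the smallest possible.

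**Figure D1:**
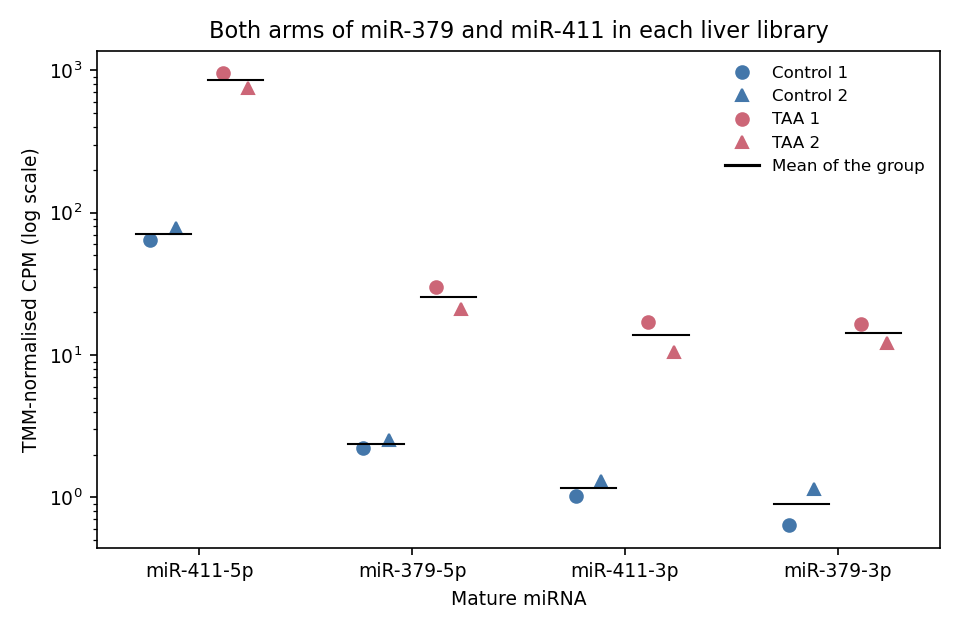
TMM-normalised CPM on a log axis (vertical) of the 4 members (horizontal) in each library, with a horizontal line at the mean of each group of 2 libraries. For each member both TAA libraries lie above both controls, as in 29.7% of all 644 miRNAs tested. miR-411-5p reaches 752 and 949.7 CPM after TAA, and the 3p arms lie together near 1 CPM in the controls and between 10.6 and 17.1 CPM after TAA.

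The 4 members also kept the same order of libraries. Control 2 was above control 1 and TAA 1 above TAA 2 in all 4. Of the 47 tested miRNAs of the distal cluster, 35 had control 2 above control 1 and 39 had TAA 1 above TAA 2. The erythroid markers ran the other way, being highest in TAA 2. The order was not counted over all tested miRNAs, so it cannot be called particular to the cluster. Without TAA 2 the log2 fold changes of miR-379-5p, miR-379-3p, miR-411-5p and miR-411-3p were 3.66, 4.21, 3.75 and 3.88. Without TAA 1, where each member was highest, they were 3.15, 3.77, 3.40 and 3.17, and all 4 passed the edgeR test in both cases (adjusted p from 0.0014 to 0.00978).

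The arms of a hairpin come from 1 precursor, so their ratio asks whether they changed unequally. In miR-411 the 5p arm held nearly all counts in every library. Its share of the hairpin's counts was 98.45% and 98.34% in the controls and 98.24% and 98.62% after TAA, with 95% Wilson intervals reaching at most from 97.85% to 98.85%. The log2 ratio of 5p to 3p was 5.92 in control and 5.98 after TAA, a difference of 0.052 (SE 0.21, 95% interval -0.46 to 0.57, limma adjusted p = 0.985 over 150 hairpins).

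miR-379 was less one-sided. The 5p arm held 77.7% of its counts in control 1 (94 of 121, interval 69.5% to 84.2%) and 69.0% in control 2 (109 of 158, interval 61.4% to 75.7%). After TAA it held 64.6% (interval 62.5% to 66.6%) and 63.5% (interval 61.2% to 65.7%), below both controls, although the intervals of control 2 and both TAA libraries overlapped. The log2 ratio of 5p to 3p went from 1.46 to 0.83, a difference of -0.63 (SE 0.26, 95% interval -1.28 to 0.016), which did not pass (limma adjusted p = 0.985). The result rests on the controls: without control 2 the difference was -0.95 and passed (adjusted p = 0.00798), as 1 of 13 hairpins called of 152 in that fit, and without control 1 it was -0.31 and did not (adjusted p = 0.955). With all libraries, limma called 0% of the 150 hairpins, of which 5 had an unadjusted p under 0.05. With a trended and robust variance it also called 0, with 5 added to each count 3 of 150, and with a mean of 100 or more counts per arm 1 of 99. miR-379 was not among those calls. Of the 12 distal hairpins whose arms both averaged 20 counts or more, 8 had a lower 5p to 3p ratio after TAA, against 78 of all 150. Their median difference was -0.44 against -0.015. Some of the 12 reached that average only through the TAA libraries, so their control ratios rest on few counts. In control 1 and control 2 the log2 ratio was 4.52 and 1.28 for miR-382, and 6.15 and 0.97 for miR-154. The 12 also come from 1 locus and are not independent, so no shift of the cluster can be read from them.

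**Figure D2:**
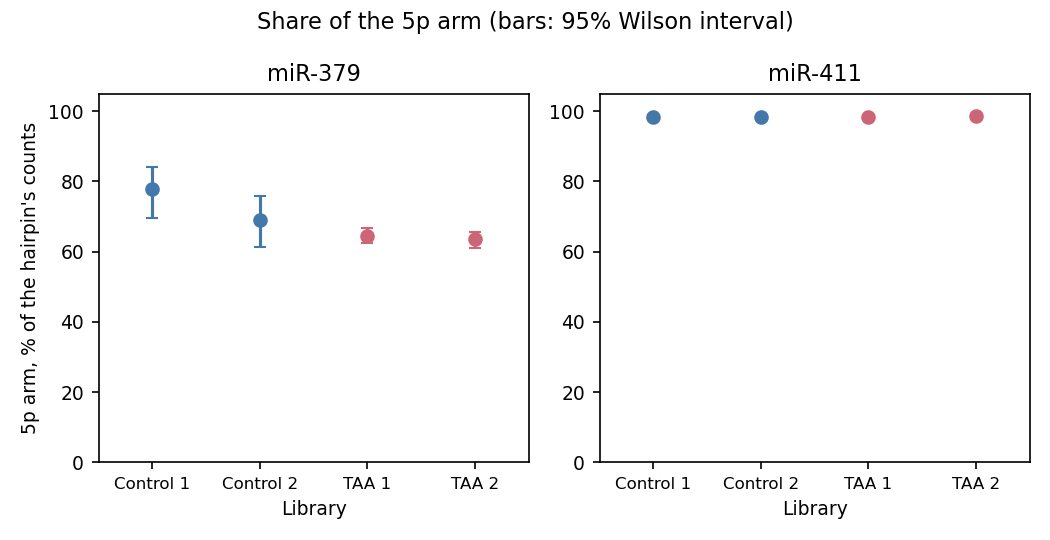
Share of the 5p arm in the counts of miR-379 (left) and miR-411 (right), in percent, for each library (blue, controls; red, TAA), with 95% Wilson intervals that cover counting error only. The share of miR-379 lies between 63.5% and 77.7% and is lower in both TAA libraries, whose intervals overlap that of control 2 but not that of control 1, while that of miR-411 stays between 98.24% and 98.62%.

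Within the distal cluster, which runs from Mir379 to Mir410, the rises of the members lay within the range of the rest. The files hold 73 miRNAs of 37 plus-strand hairpins there, 62 had counts, and 47 were tested, of which 44 rose and 0 fell. Their median log2 fold change was 3.77, against -0.0042 over all 644 tested. It stayed at 3.77 with the 1 miRNA without control counts set at its bound (against 3 counts over the control group), and the 43 that are not members also had a median of 3.77. Of these 47, miR-379-3p ranked the 13th by log2 fold change, miR-411-5p the 28th, miR-411-3p the 29th and miR-379-5p the 32nd. Among those with control counts, the log2 fold change ran from 1.87 for miR-329-3p (edgeR adjusted p = 0.0773) to 5.24 for miR-494-3p (adjusted p = 0.00022). miR-329-3p had a log2 fold change of 0.96 without TAA 1 (edgeR adjusted p = 0.589) and 2.44 without TAA 2 (0.0882), and passed without control 1 or control 2 (0.0071 and 0.0436). miR-494-3p, with 1 and 5 control counts, had 4.51 without control 1 and 6.70 without control 2. In all 47 both TAA libraries lay above both controls, as in 29.7% of all miRNAs tested, but these 47 come from 1 locus and are not independent. Some of them passed the filter on low counts only through the TAA libraries. An example is miR-134-3p, with 0 and 0 control counts and 25 and 42 counts after TAA. For such miRNAs the filter itself favoured a rise. The number that rose, the median and the separation of the groups are therefore partly set by the filter. The plus-strand miRNAs of the region before Mir379 had 20 tested, of which 17 rose and 0 fell, with a median of 3.31. Some of these also passed the filter only through the TAA libraries. In edgeR's test the extremes there were miR-431-3p (1.51, adjusted p = 0.239) and miR-493-5p (4.72, adjusted p = 0.0103), and the most abundant was miR-434-3p (3.36, adjusted p = 2.01e-05). miR-493-5p had 1 control count in all, measured 3.85 without control 2, and did not pass without TAA 1 or without TAA 2. miR-431-3p measured 0.31 without TAA 1 and 2.18 without TAA 2, passing in neither case.

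**Figure D3:**
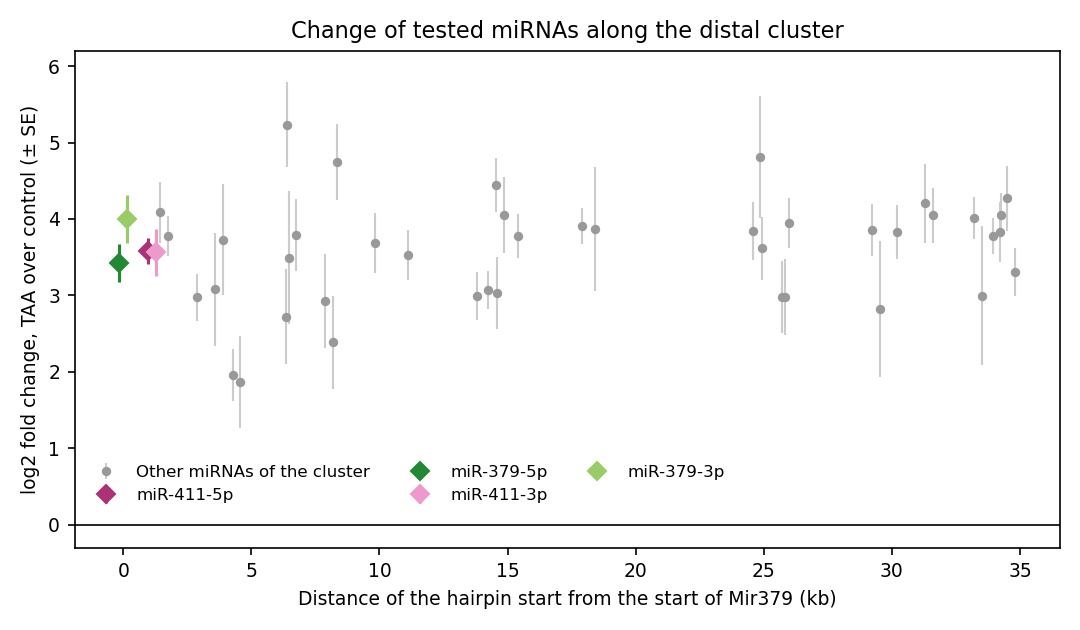
log2 fold change of TAA over control with its standard error (vertical) for the tested miRNAs of the distal cluster, by the distance of the hairpin from the start of Mir379 in kb (horizontal; 5p and 3p arms are set slightly apart). The 4 members, drawn as diamonds at the left end, lie between 3.42 and 4.001, within the range of the other miRNAs; the miRNA without control counts is not drawn.

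The members together supplied 56.5% and 50.4% of the distal cluster's counts in the controls and 47.2% and 49.0% after TAA. miR-411-5p alone made up 53.3% and 47.3% of the distal cluster's 5132 and 6996 counts in the controls, and 44.2% and 46.3% of 97676 and 83280 counts after TAA. Its share was below both controls in both TAA libraries. The share of miR-379-5p was also lower, at 1.83% and 1.56% in the controls and 1.40% and 1.31% after TAA. miR-411-3p took 0.84% and 0.80% in the controls and 0.79% and 0.65% after TAA, and miR-379-3p 0.53% and 0.70% against 0.77% and 0.75%. Relative to the summed counts of the other distal miRNAs, the log2 ratio was lower after TAA by 0.31 for miR-411-5p, 0.49 for miR-379-5p and 0.36 for miR-411-3p, and higher by 0.14 for miR-379-3p. In each case the exact permutation test gave its smallest possible p of 0.33, also after adjustment over the 6 ratios compared. As a share of all miRNA counts, the 4 members together held 0.0068% and 0.0076% in the controls and 0.105% and 0.0835% after TAA.

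**Figure D4:**
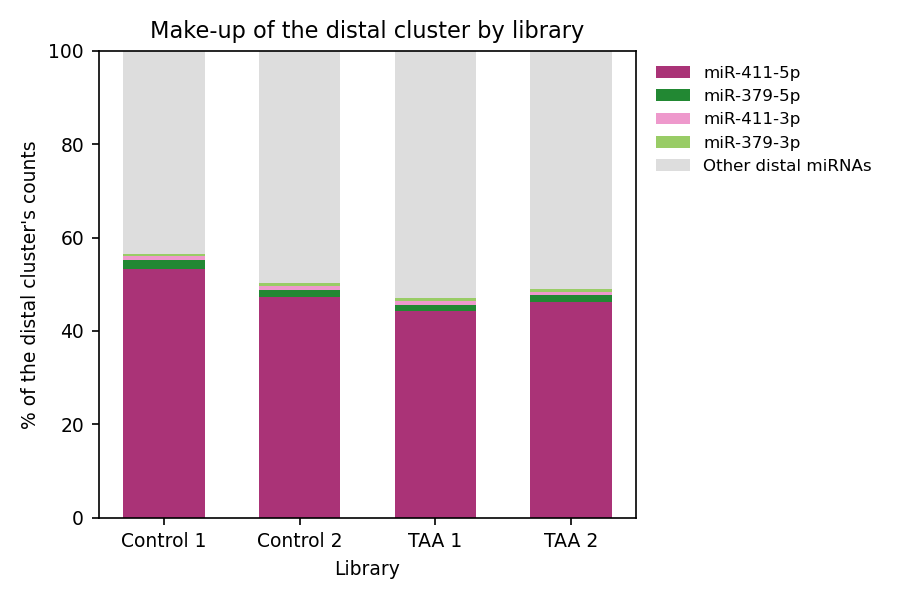
Share of the distal cluster's counts, in percent (vertical), taken by the 4 members and by all other distal miRNAs (grey) in each library (horizontal). miR-411-5p takes between 44.2% and 53.3% in every library, and the 3 other members together are a thin band above it.

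The nearest hairpins on the plus strand frame the members. Going upstream, Mir882 lies 26.8 kb before Mir379 and miR-882 had no counts in any library, which allows up to 0.0704 CPM before TMM scaling in control 1, the shallowest. Mir370, in Rian, lies 90.7 kb before Mir379. miR-370-3p had 0, 8, 29 and 26 counts and miR-370-5p 0, 2, 12 and 11, in the order control 1, control 2, TAA 1 and TAA 2, and neither passed (edgeR adjusted p = 0.0964 and 0.0586). Both passed with library size alone in place of TMM factors (adjusted p = 0.0222 and 0.0263) and with limma-voom (0.049 and 0.0323). Neither passed with RLE factors (0.0988 and 0.0613), DESeq2 (0.168 and 0.176) or a replicate block (0.0739 and 0.159). Only miR-370-5p passed with upper-quartile factors (0.0451), and only miR-370-3p with no filter on low counts (0.00221). Their log2 fold changes were 7.73 and 6.48 without control 2, the only control with counts, and 1.58 and 2.27 without control 1.

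Downstream, Mir299a begins 381 bp after Mir411. Both of its arms rose, miR-299a-3p from 0.76 and 0.94 to 13.3 and 9.90 CPM (log2 fold change 3.77, SE 0.26) and miR-299a-5p from 0.24 and 0.14 to 3.83 and 2.67 CPM (log2 fold change 4.09, SE 0.40). Its 3p arm is the more abundant, unlike in miR-379 and miR-411. An antisense hairpin, Mir299b, overlaps it, and its arms had at most 5 counts. miR-380-3p, from the next hairpin, rose from 0.35 and 0.49 to 3.54 and 3.16 CPM (log2 fold change 2.98, SE 0.30), while miR-380-5p had 0 to 6 counts. The following hairpin, Mir1197, gave 0 counts for its 5p arm and 2 counts in all for its 3p arm.

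The miRNAs that share a seed with a 5p member were scarce. miR-1193-5p, from a hairpin 6.54 kb after Mir379, had 0 and 3 counts in the controls and 22 and 19 after TAA. It passed the edgeR test (adjusted p = 0.0278), but not without control 1, TAA 1 or TAA 2 (adjusted p = 0.0847, 0.338 and 0.235); its log2 fold change without control 1 was 2.54. Its TAA libraries had 0.48 and 0.37 CPM, against 30.0 and 21.2 CPM for miR-379-5p. miR-7229-5p had 0 counts in all libraries, which allows up to 0.0704 CPM before TMM scaling, so that miR-411-5p supplied all counts with its seed among miRNAs that have a RefSeq sequence. For the shared 3p seed, miR-379-3p and miR-411-3p together are the only RefSeq sources.

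The miRNAs most like each member were found by the root mean square difference between log2(CPM + 0.5) profiles over the 4 libraries, each centred on its own mean, among 456 other tested miRNAs with a mean of at least 1 CPM. By this measure the closest were miR-299a-3p to miR-379-5p (0.031), miR-337-5p to miR-379-3p (0.073), miR-409-5p to miR-411-5p (0.045) and miR-485-3p to miR-411-3p (0.098). The 3 nearest of each member gave 12 places to 8 miRNAs, 3 of the distal cluster and 5 of the part before Mir379, and 0 outside the region, which held 42 of the 456 candidates. Which miRNAs came nearest depended on the pseudocount; an added 0.5 damps the rise of the members other than miR-411-5p, which had 0.64 to 2.55 CPM in the controls. With 0.05 added instead, a setting picked once these values were known, 1 of the 12 places stayed (miR-127-3p beside miR-411-5p), and again 0 lay outside the region. With 4 libraries the distances follow mainly the difference between the groups. Some candidates also reached a mean of 1 CPM only through the TAA libraries. Examples are miR-299a-3p, with 0.76 and 0.94 CPM in the controls, and miR-485-3p, with 0.52 and 0.84 CPM. The places taken within the region therefore in part restate the rise of its miRNAs.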

How the data were processed

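The authors deposited 1 file of raw read counts per mature miRNA for each of 4 mouse liver libraries, with 5 summary rows that were left out of library sizes and tests. Per the labels' protocols, an miRNeasy kit gave the total RNA and a TruSeq kit the small RNA libraries. Bowtie, HTSeq and build mm10 are named in the submitters' processing notes; for versions, settings and the miRNA annotation, nothing is given in the sources used here. Reads outside annotated miRNAs were 22.8% to 26.4%, and the row for non-unique alignments holds 0.

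Groups follow the treatment label. Counts were tested with edgeR 4.0.16 in R 4.3.3 (filterByExpr, TMM, quasi-likelihood, all 4 libraries), and SE is the log2 fold change over the square root of F. Arm ratios, log2 of 5p over 3p counts each plus 0.5, were tested with limma 3.58.1 where both arms had a mean of at least 20 counts. Both tests were first tried on simulated counts, where more of the arm test's calls were false than its threshold allows, so its calls are to be read with caution. Replicates differed by a chi-square of 289 (controls) and 376 (TAA) per degree of freedom, so none was a copy. Wilson intervals and limits for 0 counts (3 counts) cover counting error only.

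The members and lists were chosen with earlier results of these data known. Named miRNAs are the members, up to 2 plus-strand hairpins before and 3 after them, miRNAs sharing a seed, the 3 most similar profiles per member, and the extremes and most abundant miRNA of each list. Cell markers were 8 lists: hepatocyte, erythroid, leukocyte, stellate or mesenchymal, endothelial, neural, muscle and pancreas. Positions come from GENCODE M21 (GRCm38, the same build as mm10) for 1872 names and sequences from RefSeq for 1623. Alternatives were other scalings and filters, limma-voom, DESeq2 1.42.0, fits with a replicate block or without 1 library, and other arm-ratio settings.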

Additional observations from a re-analysis of the deposited data

How the results depend on the processing

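All 4 members rose, past the threshold, under each of the 13 alternatives run for each. Over the alternatives the log2 fold change lay between 3.15 and 3.66 for miR-379-5p, 3.62 and 4.48 for miR-379-3p, 3.40 and 3.75 for miR-411-5p, and 3.17 and 3.88 for miR-411-3p, in each case with both ends set by leaving out a library. Upper-quartile factors and library size alone moved the median of all miRNAs to -0.17 and 0.12. The total of changed miRNAs, 107 with 84.1% higher, was 115 with 72.2% higher under upper-quartile factors, 16 with 68.8% higher when the other Dlk1-Dio3 miRNAs were left out, and 49 to 131 when 1 library was left out: 54 without TAA 1 and 49 without TAA 2. The number of distal miRNAs that rose was an alternative added after seeing the data. With all libraries and the main filter it ran from 42 of 47 with DESeq2 to 47 of 47 with library size alone. It was 34 of 34 with a mean CPM of at least 1, and 48 of 62 with no filter on low counts. The lowest numbers came from the fits without TAA 1 or TAA 2. Leaving out 1 library gave differences of -0.95 to -0.31 for the 5p to 3p ratio of miR-379, -0.13 to 0.23 for that of miR-411, -0.26 to -0.0955 for miR-379-5p over miR-411-5p, and 0.27 to 0.74 for miR-379-3p over miR-411-3p; for miR-411 the sign turned without TAA 2 (-0.13). The cause was not tested. The labels do not say what a replicate number marks, and deviations of same-numbered libraries correlated at -0.053 over 644 miRNAs, so the libraries were not treated as pairs. With a replicate block the log2 fold changes were 3.40, 4.01, 3.58 and 3.53 for miR-379-5p, miR-379-3p, miR-411-5p and miR-411-3p, and the arm differences stayed at -0.63 for miR-379 and 0.052 for miR-411. Depth limits the 3p arms, with 27 to 56 counts per control library.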
